A study of Mus musculus with 2 samples.

Results

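Genes of matrix turnover, 10 in number, namely the matrix metalloproteinases Mmp2, Mmp3, Mmp9, Mmp11, Mmp13, Mmp14 and Mmp19 and the inhibitors Timp1, Timp2 and Timp3, were followed across the cell types of mouse long-bone marrow. They were chosen by gene symbol, and all 10 were found among the 34144 genes listed for both libraries. The libraries hold single-cell RNA of marrow stromal cells from wild-type C57BL6 mice, 1 library from adult and 1 from old animals. Flushed bones were digested with collagenase, dispase and DNase, red cells were lysed, other blood cells were depleted, and live cells were sorted before droplet capture. The labels give age as a word, and say nothing of the number of mice, their sex or any pooling. With 1 library per age no difference could be tested, so each value carries an exact 95% interval that covers counting error only, and age cannot be told apart from anything else that differed between the libraries.

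Matrix metalloproteinases are zinc-dependent enzymes that are made as inactive precursors and cut collagens and other proteins around the cell. Tissue inhibitors of metalloproteinases, the TIMPs, block them by binding the active site. In bone, Mmp13 is the main collagenase of osteoblasts, osteocytes and hypertrophic chondrocytes, Mmp9 is known from osteoclasts and neutrophils, and Mmp14 sits in the cell membrane and activates Mmp2 in a complex with Timp2.

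The filters left 22403 adult and 18975 old cells, with medians of 7139 and 7736 UMIs (unique molecular identifiers, the counted transcripts). Of these, 108 barcodes occurred in both libraries. Cells were named from marker genes that include none of the 10, and a name ends in "-like" because it rests on markers alone. The most numerous were CAR-like cells, which carry the markers of the CXCL12-abundant reticular cells of the stem cell niche, with 12767 adult and 14286 old cells. Osteolineage-like (bone-forming) cells numbered 3127 adult and 835 old, and endothelial-like cells 1769 and 401. Pericyte or smooth muscle-like cells numbered 488 and 216, megakaryocyte-like cells 677 and 461, and erythroid-like cells 157 and 329. The labels call the sorted cells stromal, yet blood-derived cells remained, among them 1358 plasma cell-like cells in the old library. No cluster took the osteoclast or macrophage name. CAR-like cells of the libraries lay largely in different clusters: clusters 12 and 19, the ones with at least 50 CAR-like cells of each library, took in 2.15% of the adult and 7.87% of the old total. Adult ones were mostly in clusters 0, 2 and 5, and old ones in clusters 1, 3, 8 and 9. Transcripts of bone-forming cells in other cells also differed between the libraries, and not in 1 direction: endothelial-like cells held Bglap at 240.1 CPM (UMIs per 1000000 UMIs of the pool) in the adult library and 7.72 CPM in the old one, but Spp1 at 227.7 and 1263 CPM. Whether these UMIs came from free RNA or from doublets was not tested.

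Promoter sequences were available for 7 of the 10 genes. Shown here are those of the collagenase and the inhibitor that the results turn on, and that of a gene with almost no UMIs for contrast. Each is the 250 bases before the RefSeq start site on build GRCm38.p6, read 5′ to 3′ on the gene's strand: Mmp13 at chr9:7272264-7272513, Mmp3 at chr9:7445572-7445821 and Timp3 at chr10:86300162-86300411, all on the plus strand. Capitals mark matches on either strand to 4 motifs. The AP-1 motif was searched as TGANTCA, where N is any base. The motif of the RUNX factors was searched as TGTGGT, which reads as its complement where it lies on the other strand. The TATA box was searched as TATAAA, in both orientations and without mismatches. The GC box, which Sp-family factors bind, was searched as GGGCGG.
Mmp13: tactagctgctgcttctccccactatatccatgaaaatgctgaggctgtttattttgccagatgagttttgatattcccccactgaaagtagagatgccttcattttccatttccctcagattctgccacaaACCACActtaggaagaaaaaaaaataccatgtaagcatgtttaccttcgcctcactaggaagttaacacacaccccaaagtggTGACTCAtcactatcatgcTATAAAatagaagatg
Mmp3: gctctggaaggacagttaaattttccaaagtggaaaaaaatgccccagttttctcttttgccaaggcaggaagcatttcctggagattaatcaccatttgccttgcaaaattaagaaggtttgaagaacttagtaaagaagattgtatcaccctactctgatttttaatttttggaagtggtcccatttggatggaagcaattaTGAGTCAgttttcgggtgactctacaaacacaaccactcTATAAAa
Timp3: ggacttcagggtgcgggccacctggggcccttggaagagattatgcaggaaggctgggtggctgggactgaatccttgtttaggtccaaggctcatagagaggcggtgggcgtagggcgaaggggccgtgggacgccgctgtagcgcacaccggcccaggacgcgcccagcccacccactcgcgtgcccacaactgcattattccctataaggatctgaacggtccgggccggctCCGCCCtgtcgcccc
The Mmp13 window held an AP-1 match beginning 35 bases before the start, a RUNX match at 118 bases and a TATA match at 16 bases. The Mmp3 window held an AP-1 match at 46 bases and a TATA match at 7 bases. Timp3 held a GC box at 15 bases. Of 32851 mouse promoters of the same length, 6.75% held the AP-1 letters, 14.1% the RUNX letters, 12.4% the TATA letters and 32.7% the GC box. A match describes these letters only. Mmp3, whose window shares the AP-1 and TATA letters with that of Mmp13, had 83 UMIs in all adult and 25 in all old cells, whereas Mmp13 had 141526 and 136272.

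Mmp13, the collagenase, was detected in every cell type and was highest in the old osteolineage-like cells. There it stood at 4790 CPM, against 704 CPM in adult osteolineage-like cells, a 6.81-fold difference (log2 2.77, interval 2.75 to 2.79). An Mmp13 UMI was present in 86.1% of the old cells and 71.9% of the adult ones. After each cell was thinned to 1000 UMIs the shares were 71.1% and 30.1%. CAR-like cells held 586 CPM (adult) and 665 CPM (old), a log2 difference of 0.18 (0.17 to 0.20). In the same order, the level was 252 and 243 CPM in endothelial-like cells, 259 and 218 CPM in pericyte or smooth muscle-like cells, 555 and 463 CPM in megakaryocyte-like cells, and 235 and 233 CPM in erythroid-like cells. None of these lower levels differed between libraries by 2-fold. Fibroblast-like cells, too few in the old library to be compared, held 302.5 CPM in 90 adult cells and 1514 CPM in 33 old cells.

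Levels in blood-derived cells ranged widely, and the highest were near those of CAR-like cells. Plasma cell-like cells, which were found in the old library and are not known to make the enzyme, held 48.5 CPM, and 41.8% of them had an Mmp13 UMI at their high depth. Neutrophil lineage-like cells held 421.8 CPM (adult) and 137 CPM (old), and megakaryocyte-like cells the values given above. In the adult neutrophil lineage-like cells, 1 of the 63 held 125 of the 210 Mmp13 UMIs (59.5%). Thinned to 1000 UMIs, the share of cells with a UMI was 20.5% (adult) and 13.3% (old) in megakaryocyte-like cells, 12.96% and 5.06% in neutrophil lineage-like cells and 9.68% and 6.44% in erythroid-like cells, and 4.28% in plasma cell-like cells. In CAR-like cells it was 30.2% and 28.0%, above each of these in the same library. The values of blood-derived cells are given as levels in droplets, without a claim that these cells transcribe the gene.

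Within the stromal classes Mmp13 was unevenly spread. Among CAR-like clusters of the old library it ran from 265 CPM (260.5 to 270.2) in cluster 1, led by Grm7 and Tenm2, to 1769 CPM (1749 to 1789) in cluster 9, led by Cxcl13 and Col8a1. The adult CAR-like clusters 0, 2 and 5 held 706, 462 and 447 CPM. A cluster of 2366 adult cells led by Hs3st5, Wif1 and Vcan, which scored for both the CAR and the osteolineage lists and stayed unnamed, held 1448 CPM. The chondrocyte-like clusters, seen in the adult library, stood far apart: cluster 32, of 37 cells led by Col10a1, the collagen of hypertrophic cartilage, had 7532 CPM and cluster 28, of 103 cells led by Snorc and Hapln1, had 63.3 CPM.

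**Figure D1:**
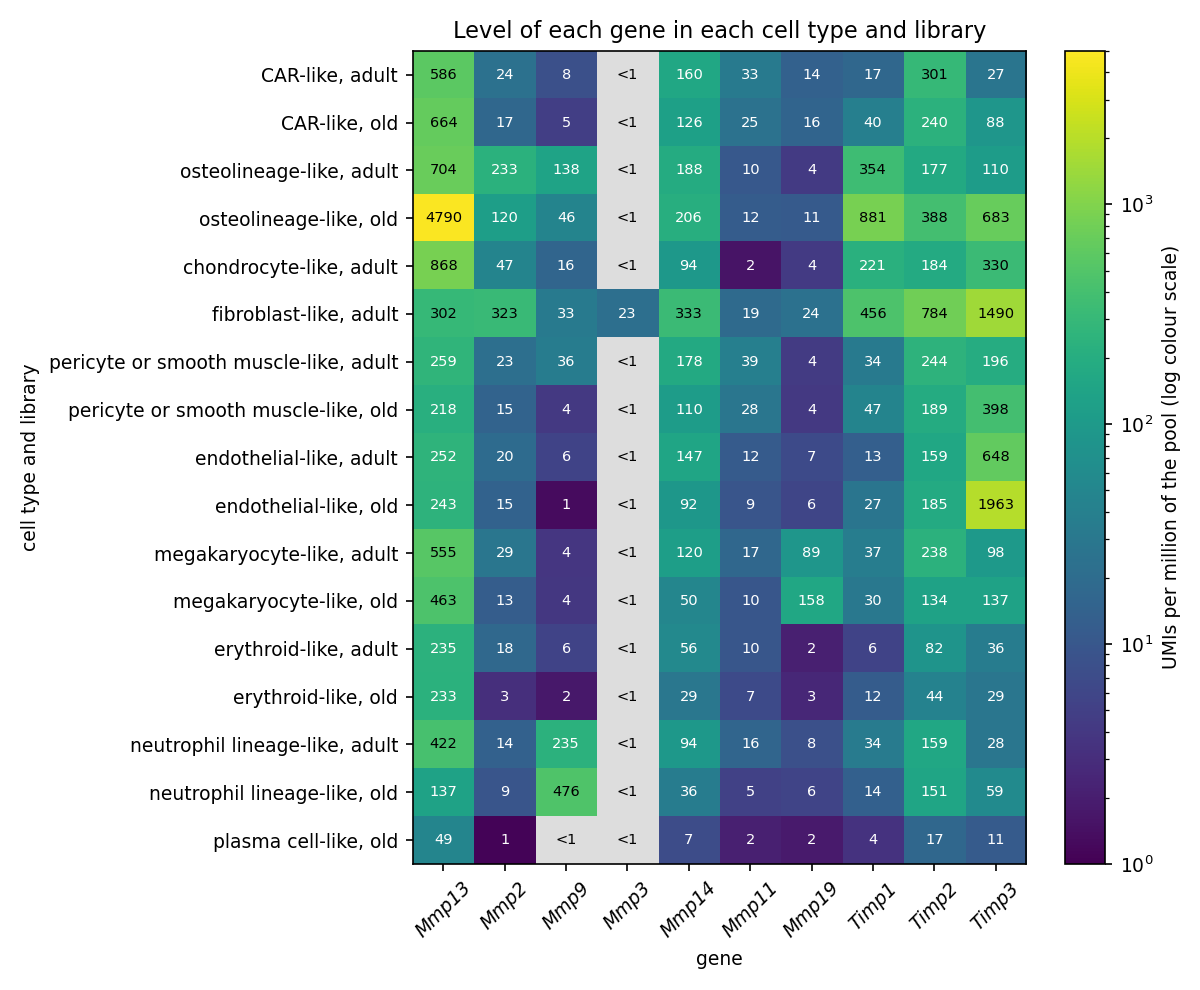
Level of each gene (columns) in each cell type and library with at least 50 cells (rows), in CPM, on a log colour scale with the value printed; grey marks values under 1. Mmp13 is highest in old osteolineage-like cells at 4790, Timp3 in old endothelial-like cells at 1963, and Mmp9 in old neutrophil lineage-like cells at 476.

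Mmp2, a gelatinase, was highest in fibroblast-like cells, at 323 CPM in 90 adult cells and 326 CPM in 33 old cells. Osteolineage-like cells followed with 233 CPM (adult) and 119.6 CPM (old), a log2 difference of -0.96 (-1.05 to -0.88), just short of 2-fold. CAR-like cells held 23.98 and 17.5 CPM. Over all cells Mmp2 was at 87.7 CPM (adult) and 16.3 CPM (old). Osteolineage-like cells made up 13.96% and 4.40% of these libraries, and the Wif1 cluster, at 126 CPM of Mmp2, held 2366 adult and 27 old cells. Plasma cell-like and unnamed cells held 44896379 and 40980281 of the 222482638 UMIs of the old library, at 1.07 and 2.39 CPM of Mmp2. How far such differences in make-up account for the whole-library values was not tested.

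Mmp9, the other gelatinase, was concentrated in few cells. Neutrophil lineage-like cells held 235 CPM in 63 adult cells and 476 CPM in 164 old cells, with a UMI in 39.7% and 59.2% of them. The markers of that cluster also scored high for the B lineage. Osteolineage-like cells held 138 CPM (adult) and 46.3 CPM (old), 2.99-fold lower in the old one (log2 -1.58, interval -1.71 to -1.45). Of the 6516 adult UMIs, 5955 (91.4%) lay in 27 of 3127 cells, each with at least 20 Mmp9 UMIs, a limit chosen after the values were seen. Without such cells the level was 12.04 CPM (adult) and 41.8 CPM (old), so the direction turned (log2 1.80, interval 1.62 to 1.98).

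The 28 Mmp9-rich osteolineage-like cells, 27 adult and 1 old, each held between 26 and 1223 Mmp9 UMIs. Mmp13 was also high in them, with a median of 183.5 UMIs per cell and 16120 CPM, against 1334 CPM in the other 3934 osteolineage-like cells. Mmp14 was at 1984 CPM against 176 CPM. Fabp5, a fatty acid binding protein, Cd55, a complement regulator, and Cemip, a hyaluronan-binding protein, were among their leading genes. Of the matrix genes of the osteoblast, Col1a1 was low at 473 against 61060 CPM, and Bglap at 70.2 against 17770 CPM. Spp1 was not: it had a UMI in all 28 cells, at 9480 against 10710 CPM and a median of 52 against 10 UMIs. Of 8 osteoclast markers, 6 (Acp5, Calcr, Ocstamp, Dcstamp, Atp6v0d2 and Oscar) had no UMI in any of the 28 cells, and the leukocyte gene Ptprc had none either. Csf1r, a receptor gene of the macrophage lineage, had a UMI in 4 of them (16.03 CPM, against 8.79 CPM in the other cells). Of the other 2 osteoclast markers, Ctsk had a UMI in 24 of the cells and Tnfrsf11a in 2. These 28 cells were placed by their cluster and stand apart from it: 25 were in cluster 10 and 3 in cluster 15, 26 were named fibroblast-like when at least 1000 genes per cell were required, and 25 were named CAR-like at the coarser clustering. They are not given a cell type name.

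**Figure D2:**
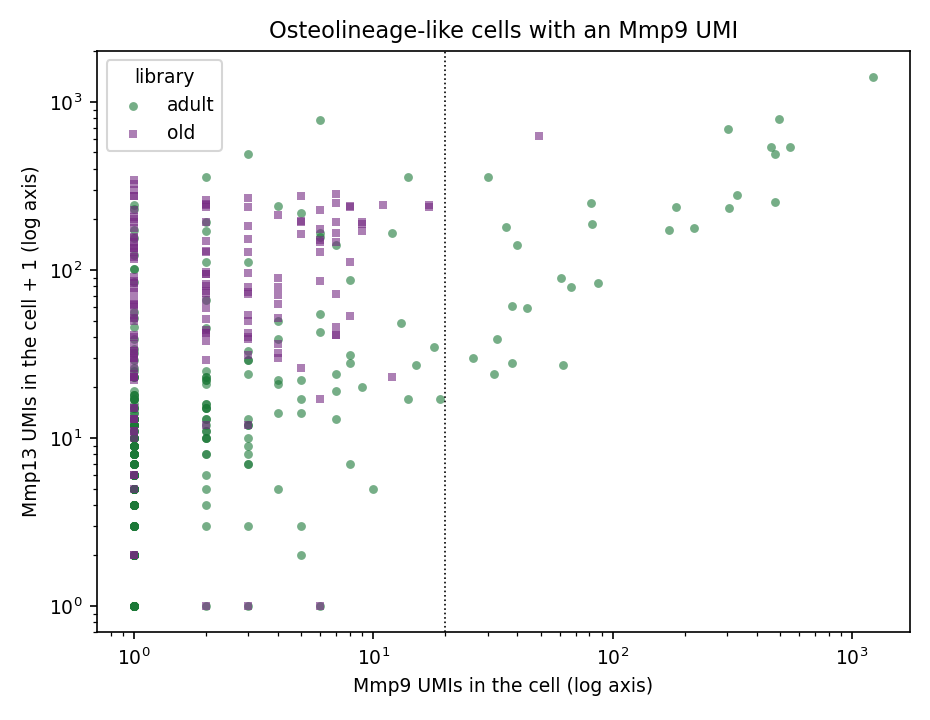
Mmp13 against Mmp9 UMIs in each osteolineage-like cell with an Mmp9 UMI, on log axes; circles are adult and squares old cells, and the dotted line marks 20 Mmp9 UMIs. The 28 cells right of the line include 1 old cell, and none of them has fewer than 23 Mmp13 UMIs.

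Mmp14, the membrane-bound activator, was detected broadly. It was highest in fibroblast-like cells, at 333 and 254 CPM, and stood at 188 and 206 CPM in adult and old osteolineage-like cells and at 160 and 126 CPM in CAR-like cells. Endothelial-like cells held 147 and 91.8 CPM, pericyte or smooth muscle-like cells 179 and 110 CPM, and megakaryocyte-like cells 120 and 50.1 CPM. The last was 2.40-fold lower in the old library (log2 -1.26, interval -1.57 to -0.97), and within cluster 11 alone, which held most of these cells in each library, the difference was 1.92-fold. Over all cells Mmp14 was at 181 and 86.4 CPM, in libraries of unlike make-up. Plasma cell-like and unnamed cells held 44896379 and 40980281 of the 222482638 UMIs of the old library, at 7.15 and 38.6 CPM of Mmp14. Erythroid-like cells, which are not known to make it, held 55.5 and 28.98 CPM. When their UMIs per cell were subtracted as free RNA, none of the 124 old and 38.3 of the 379 adult Mmp14 UMIs of megakaryocyte-like cells were left, so that setting gave no ratio.

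Mmp11, known as stromelysin-3, which is cut by furin before secretion, was highest in pericyte or smooth muscle-like cells (39.1 and 28.0 CPM) and CAR-like cells (33.4 and 24.7 CPM) of the pools above 50 cells. Mmp3, a stromelysin, was at 22.7 CPM in adult fibroblast-like cells, from 18 UMIs in 4.44% of 90 cells. Of these UMIs, 13 lay in 1 cell. Mmp3 had 0 UMIs in the 33 old fibroblast-like cells. There a limit of 3 counts allows up to 9.09% of cells with a UMI, and the exact interval up to 10.6%. Elsewhere its level stayed under 1 CPM in every cell type.

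Mmp19, a soluble enzyme of basement membrane proteins, was highest in megakaryocyte-like cells, at 88.5 CPM (adult) and 158 CPM (old). The difference was 1.78-fold (log2 0.84, interval 0.61 to 1.06). A UMI was found in 17.9% and 30.2% of the cells at all depths, and in 8.77% and 14.5% after thinning to 1000 UMIs. In cluster 11 alone the level was 52.4 and 108.8 CPM, a 2.08-fold difference (log2 1.05, interval 0.74 to 1.37), beside 6.99% of 3763 genes that were 2-fold apart in that cluster. Of the 279 adult and 391 old Mmp19 UMIs of the class, 151 and 208 lay in cluster 11. The rest lay in the small cluster 31, of 13 adult and 28 old cells, which held 325 CPM in the old library. For its 13 adult cells no level was computed, but the class and cluster 11 values place it above that of the 28 old cells. Mmp19 was thus not higher in the old library in cluster 31. CAR-like cells held 14.0 and 15.6 CPM, and the thinned share there was 1.22% and 1.52%.

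Timp1, the secreted inhibitor, was highest in the old osteolineage-like cells at 881 CPM, against 354 CPM in the adult ones (log2 1.32, interval 1.28 to 1.35). The share of cells with a UMI was 73.3% (adult) and 69.8% (old) at all depths, and 20.8% and 34.8% after thinning to 1000 UMIs. Adult fibroblast-like cells held 456 CPM, with 45.3% of the UMIs in 1 of 90 cells, and the 33 old ones held 94.2 CPM. Adult chondrocyte-like cells held 221 CPM. In CAR-like cells Timp1 stood at 16.9 and 39.9 CPM, under the minimum of 50 CPM set for a call.

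Timp2, which blocks Mmp2 and also takes part in its activation, was found in most cells of the stroma. It stood at 784 and 855 CPM in fibroblast-like cells and 301 and 240 CPM in CAR-like cells. In osteolineage-like cells the level was 177 CPM (adult) and 388 CPM (old), 2.19-fold higher (log2 1.13, interval 1.08 to 1.19). UMIs of Mmp2, Mmp14 and Timp2 together in 1 cell thinned to 2000 UMIs were seen in 10 of 84 adult fibroblast-like cells (11.9%). The share was 2.35% in adult and 4.04% in old osteolineage-like cells, and 0.72% and 0.42% in CAR-like cells.

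Timp3, which binds to the matrix and also inhibits other metalloproteinase families, was the gene that was at least 2-fold higher in the old library in 4 cell types. In endothelial-like cells it stood at 648 CPM (633.7 to 662.9) in adult animals and 1963 CPM (1907 to 2021) in old ones, 3.03-fold higher (log2 1.60, interval 1.55 to 1.65). A UMI was found in 76.8% of the adult cells and 89.0% of the old ones, and in 40.8% and 69.2% after thinning to 1000 UMIs. Pericyte or smooth muscle-like cells held 196 and 399 CPM (log2 1.03, interval 0.87 to 1.19), and osteolineage-like cells 110.4 and 683 CPM (log2 2.63, interval 2.58 to 2.68). CAR-like cells held 27.1 and 88.3 CPM (log2 1.71, interval 1.64 to 1.77), with a UMI in 11.4% and 17.8% of the cells. Fibroblast-like cells, which were not among the 6 types compared, went the other way. They held 1490 CPM of Timp3 in 90 adult cells and 587 CPM in 33 old cells. Erythroid-like cells, at 35.8 and 28.7 CPM, gave the level in cells that are not known to make it, with a UMI in 7.01% and 7.30%.

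Timp3 varied between CAR-like clusters, but most of these clusters held cells of mainly 1 library. Cluster and library therefore cannot be told apart for most CAR-like cells. The 1% of CAR-like cells with most Timp3 held 35.0% of its adult and 41.3% of its old UMIs. Old clusters 9, 3 and 13 stood at 166, 134 and 119 CPM and old clusters 1 and 8 at 40.6 and 27.2 CPM, while adult clusters 0, 2 and 5 stood at 23.7, 27.5 and 17.9 CPM. In clusters 12 and 19, the ones with at least 50 cells of each library, there was no excess in the old one: cluster 19, led by Cxcl10 and Cxcl9, held 146 and 140 CPM (log2 -0.06, interval -0.34 to 0.21), and cluster 12 held 38.8 and 24.8 CPM. Cluster 0, with 5608 adult but 29 old cells, held 23.7 CPM (22.35 to 25.17) in the adult library and 67.7 CPM (36.05 to 115.8) in the old one, from 13 UMIs in 5 cells. Summed over clusters 12 and 19 the ratio was reversed, at a log2 of -1.29. Cluster 12 gave 942 of the 1125 old cells of that sum and 76 of the 274 adult ones. When each cell was gated by its own markers, the log2 difference was 0.47.

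Endothelial-like cells formed 1 cluster, in which arterial and sinusoidal markers were unequally shared between the libraries. Sub-cluster 24 of a finer clustering, where the arterial markers Sox17 and Ly6a stood at 385 and 1311 CPM in the adult library, took in 14.98% of the class in the adult library and 65.1% of it in the old one. Timp3 in it was at 1332 CPM (adult) and 2693 CPM (old), 2.02-fold higher (log2 1.01, interval 0.94 to 1.09), beside 4.61% of genes 2-fold apart. Sub-cluster 13 held 61.6% and 31.9% of the class, and Timp3 in it was at 506 and 779 CPM, 1.54-fold higher (log2 0.62, interval 0.50 to 0.75). Sub-cluster 26, with the sinusoidal marker Stab2 at 3412 CPM, held 415 adult and 12 old cells and 663 CPM of Timp3 in the adult library. Timp3 was thus higher in the old library in each sub-cluster with enough cells of both, by less than in the class as a whole. The split was made after the values were seen.

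**Figure D3:**
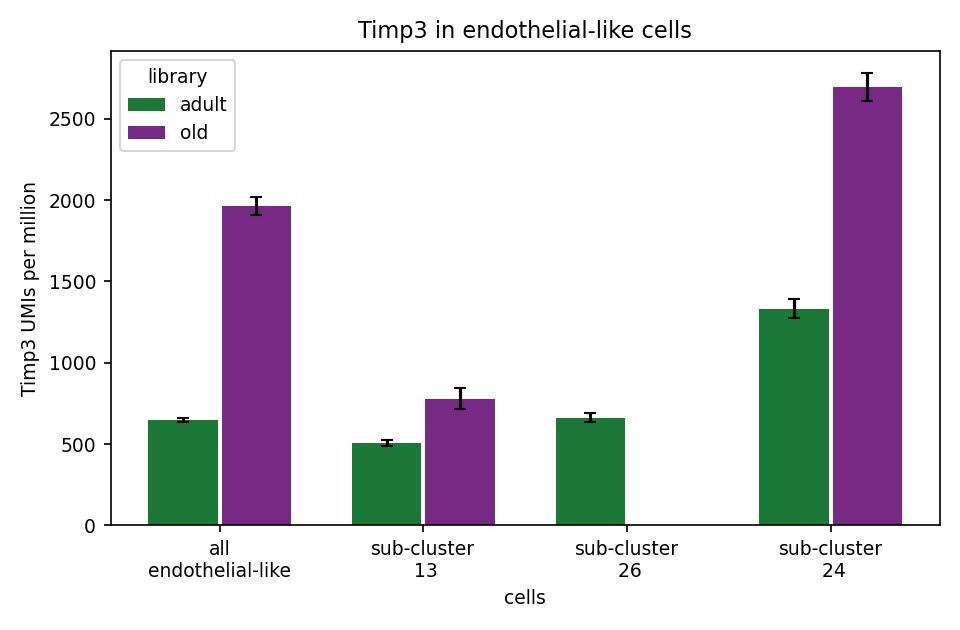
Timp3 in all endothelial-like cells and in 3 sub-clusters, in CPM, for the adult and old library; bars start at 0 and lines are exact 95% Poisson intervals. Both libraries are highest in sub-cluster 24, at 1332 and 2693, and the old bar of sub-cluster 26 is left out because it held 12 cells.

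The libraries were set side by side in 6 cell types, with a gene called apart when it was at least 2-fold higher in 1 library, with at least 50 CPM and 50 UMIs there. In osteolineage-like cells 7 of the 10 genes passed the minimum, 4 were called higher in the old library (Mmp13, Timp1, Timp2 and Timp3) and 1 lower (Mmp9). Of all 3826 genes past the minimum in that class 15.4% were called apart, 11.0% higher and 4.44% lower in the old library, and the median log2 difference was 0.23 over them and 1.13 over the 7. In CAR-like cells 4 passed and 1 (Timp3) was called higher, where 4.52% of 4186 genes were apart (2.77% higher, 1.74% lower). In endothelial-like cells 4 passed and 1 (Timp3) was called higher, where 8.48% of 4634 genes were apart (5.24% higher, 3.24% lower). In pericyte or smooth muscle-like cells 4 passed and 1 (Timp3) was called higher, where 5.71% of 4360 genes were apart (3.28% higher, 2.43% lower). In megakaryocyte-like cells 5 passed and 1 (Mmp14) was called lower, where 13.4% of 3761 genes were apart (8.32% higher, 5.08% lower). In erythroid-like cells 3 passed and none was called, where 6.53% of 2559 genes were apart (1.52% higher, 5.0% lower). The genes that did not pass were below 50 CPM in both libraries, or too few in UMIs.

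**Figure D4:**
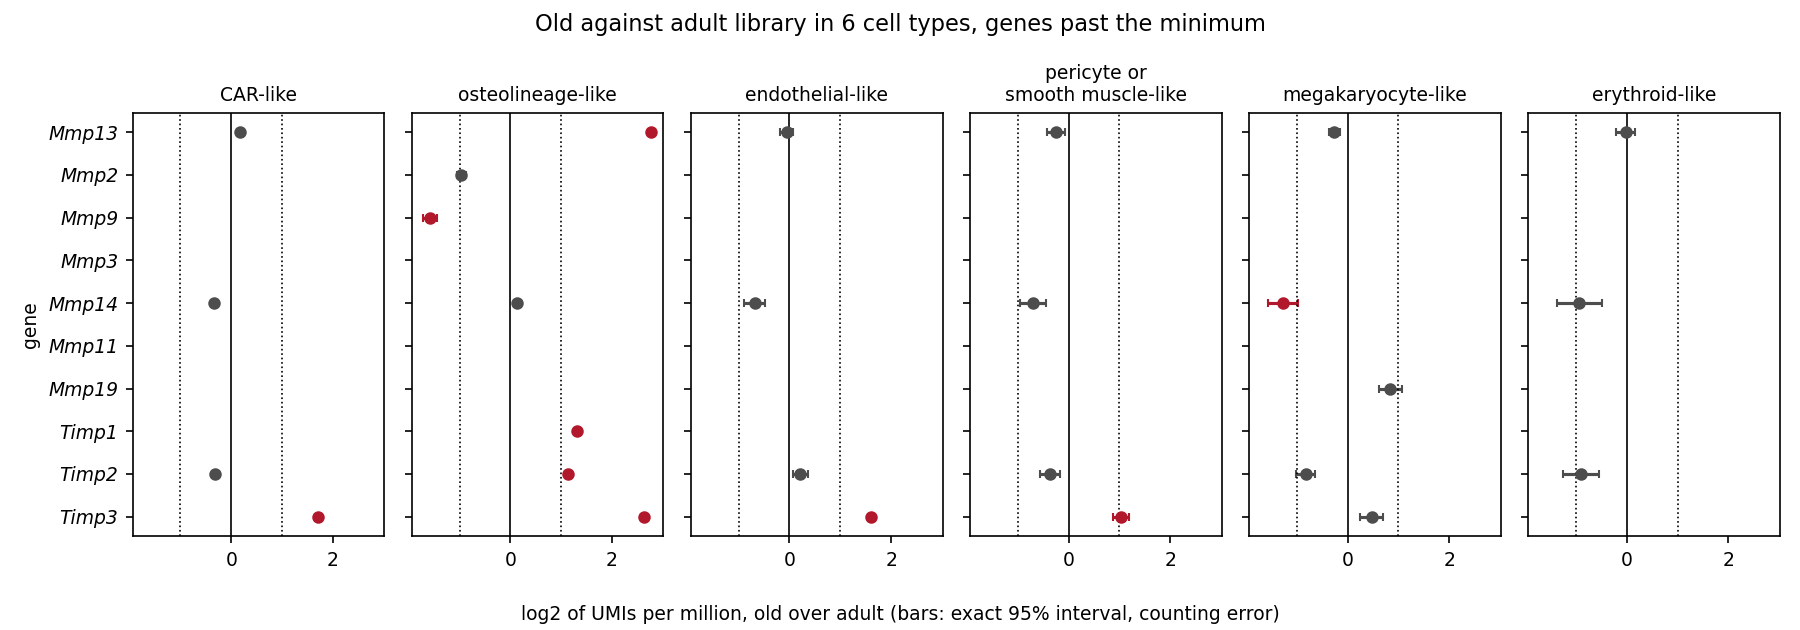
Log2 of CPM, old over adult, for the genes past the minimum in 6 cell types; bars are exact 95% intervals for counting error, dotted lines mark 2-fold, and red points are called apart. Timp3 is called higher in the old library in 4 of the 6 panels, and Mmp13 in the osteolineage-like panel alone.

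The osteolineage-like class was made up of clusters in unlike shares. Clusters 10 and 15, with at least 50 cells of each library, took in 40.7% of the adult and 90.5% of the old cells. Cluster 7, led by Col1a1 and Bglap, held 58.7% of the adult cells and none of the old. Cluster 10, led by Bglap and Col1a2, held 37.5% of adult and 9.10% of old cells. Cluster 15, led by Spp1, Postn and Dmp1, held 3.23% of adult and 81.4% of old cells, and Timp1 and Mmp13 were among its 10 leading genes although they took no part in the clustering. Cluster 29 held 20 adult and 79 old cells.

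In cluster 15 the libraries were close. Mmp13 stood at 6186 CPM (101 adult cells) and 5924 CPM (680 old cells; log2 -0.06, interval -0.09 to -0.03), Timp1 at 1032 and 1052 CPM, Timp3 at 810.2 and 833 CPM, and Timp2 at 474 and 392 CPM. None of the 7 genes past the minimum was 2-fold apart there, where 4.53% of 3949 genes were. In cluster 10 all 7 were lower in the 76 old cells than in the 1171 adult ones, and 4 by at least 2-fold, where 3.33% of 3062 genes were apart. Mmp13 was at 478 and 83.9 CPM there (log2 -2.51, interval -2.76 to -2.27), Timp3 at 77.4 and 20.1 CPM and Timp1 at 391 and 154 CPM. Mmp9 was at 212 CPM in the adult cells of the cluster and had 1 UMI in the old ones. With the Mmp9-rich cells left out, cluster 10 held 239.7 CPM of Mmp13 in the adult library and the log2 difference was -1.51 (-1.76 to -1.28). In the few cells of cluster 29 Mmp13 was lower in the old library (5729 and 356 CPM) and Timp2 higher (1037 and 1653 CPM). The higher class levels in the old library therefore did not recur in clusters 10 and 15, the ones with at least 50 cells of each library.

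**Figure D5:**
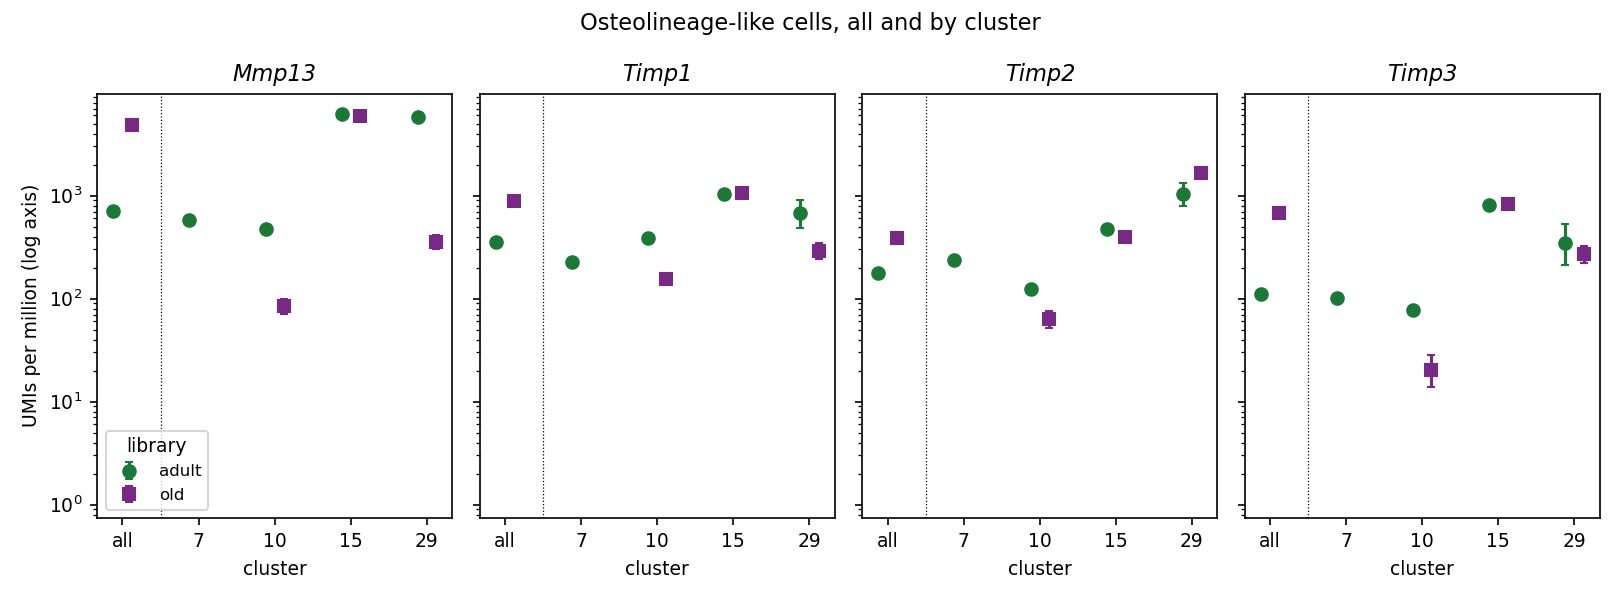
Mmp13, Timp1, Timp2 and Timp3 in all osteolineage-like cells and in clusters 7, 10, 15 and 29, in CPM on a log axis, for adult (circles) and old (squares) cells; bars are exact 95% Poisson intervals. Values of cluster 15 nearly coincide, at 6186 and 5924 for Mmp13, while old values lie below adult ones in cluster 10.

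Other genes of the family were read from lists of the metalloproteinase system. Of 17 further family genes, 14 had at least 50 UMIs in 1 library. Mmp16, another membrane-bound enzyme, was mainly osteolineage-like, at 634 CPM (adult) and 402 CPM (old). Mmp23 stood at 124 and 86.7 CPM there and at 110.1 and 90.3 CPM in CAR-like cells. Mmp8, the neutrophil collagenase, and Mmp25 were highest in neutrophil lineage-like cells in both libraries, at 323 and 528 CPM for Mmp8. Timp4 was highest in pericyte or smooth muscle-like cells at 42.7 and 66.2 CPM. Mmp15 reached 44.2 CPM in old endothelial-like cells and Mmp12 21.5 CPM in adult unnamed cells. Mmp17, Mmp28 and Mmp10 had 1068, 1815 and 155 UMIs in the adult library, and Mmp1b, Mmp21, Mmp24 and Mmp27 had 59, 56, 160 and 100.

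Of 22 activators and cofactors, 12 passed the minimum in osteolineage-like cells, 3 were called higher in the old library and none lower, where 11.0% of all genes were higher and 4.44% lower. They were Itgb3 (11.6 and 106 CPM) and Itgav (104 and 246.5 CPM), subunits of an integrin of the cell surface, and Serpine2 (998 and 5504 CPM), a serine protease inhibitor. Of these, Itgb3 was 2-fold higher in cluster 15 alone (52.2 and 121.3 CPM, 2.33-fold), while Serpine2 (5733 and 6668 CPM) and Itgav (245.7 and 284 CPM) were not, and none was in cluster 10. In CAR-like cells 10 passed, and 1, the proprotein convertase Pcsk5, was called lower (166 and 81.7 CPM), where 1.74% of all genes were. It was 1.80-fold lower in cluster 12 and 1.32-fold lower in cluster 19. Pcsk5 was called higher in endothelial-like cells (99.3 and 487 CPM), as 1 of 9 that passed, where 5.24% of all genes were higher. In megakaryocyte-like cells 10 passed. Itgb3 (443 and 1455 CPM) and Cd44 (159 and 352 CPM) were called higher and Pcsk5 (115 and 30.7 CPM) lower. Of all genes there, 8.32% were higher and 5.08% lower. Itgb3 is also a marker used to name that class, so its call is not independent of the naming.

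Of 24 transcription factors known to act on these genes, 17 passed in osteolineage-like cells and 3 were called apart, where 15.4% of all genes were. The vitamin D receptor Vdr (128 and 581 CPM) and the osteoblast factor Runx2 (1164 and 3515 CPM) were called higher there. The AP-1 subunit Fos (2416 and 1136 CPM) was called lower. Runx2 is also a marker used to name that class, so its call is not independent of the naming. Within the clusters that hold at least 50 cells of each library, Runx2 was under 2-fold apart, at 1070 and 1841 CPM in cluster 10 and 3273 and 3929 CPM in cluster 15, and so was Vdr, at 109.0 and 192 CPM and 450.4 and 674 CPM. Fos was at least 2-fold lower in the old cells of both (2.14-fold in cluster 10 and 2.32-fold in cluster 15). In CAR-like cells 17 passed as well and 3 were called lower: Vdr (234 and 60.0 CPM), Cebpb (453 and 170.0 CPM) and Fos (2618 and 1013 CPM), where 1.74% of all genes were. All 3 were at least 2-fold lower in cluster 19, and in cluster 12 Fos was (2.05-fold) while Vdr (1.83-fold) and Cebpb (1.97-fold) were not. In endothelial-like cells 20 passed; Epas1, a hypoxia-inducible factor, was called higher (737 and 1544 CPM) and Vdr and Cebpb lower, where 5.24% of all genes were higher and 3.24% lower. Lower calls were also found in the other classes compared. Of 16 that passed in megakaryocyte-like cells 4 were called lower (5.08% of all genes were), and of 13 in erythroid-like cells 5 were (5.0%). Vdr, Cebpb and Fos were called lower in both, Fos at 1495 and 511 CPM and at 710 and 273 CPM. Of 19 in pericyte or smooth muscle-like cells 2, Vdr and Cebpb, were called lower (2.43%). None was called higher in these classes. Of 8 other inhibitors, 2 passed in osteolineage-like cells and none was called, and Tfpi2 was called lower in endothelial-like cells (51.9 and 12.4 CPM).

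Patterns across cell types were compared over 17 pools of 1 cell type and library, by the Pearson correlation of log2(CPM + 10). The pools share libraries, free RNA and, in part, cell types, so the values are descriptions. Among the 10 genes the highest correlation was between Mmp14 and Timp2 (0.92), followed by Mmp2 and Timp1 (0.89) and Mmp2 and Mmp14 (0.77). Mmp13 went with Timp1 at 0.73, and Mmp9 reached at most 0.32 with any other of the 10. Over all genes Mmp2 was most like Lum (0.93), Serpinf1 and Omd, and Mmp13 most like Ust (0.87), Cdc42ep3 and Ibsp. Genes with a pattern like that of Mmp9 included Ptgs2 (0.88) and Lpcat2, and Mmp19 was most like Fhl1 (0.97), P2ry1 and Ttll11. Mmp14 was most like Cibar1 (0.96), Hsd17b4 and Mxra8, Mmp11 most like Plce1 (0.95), Eya4 and Heyl, and Mmp3 most like Scg3 (0.99), Col14a1 and Clec3b. The values for Mmp3 rest on 1 pool, adult fibroblast-like cells, the only pool where it reached 1 CPM. Timp1 was most like Smoc2 (0.88), Cemip and Fam20c, Timp2 most like Hsd17b4 (0.95), Pmepa1 and Pam, and Timp3 most like Plec (0.91) and Pde10a.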

How the data were processed

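The authors deposited, for each of the 2 libraries, raw UMI counts per gene and barcode as a sparse matrix. Per the submitters' processing notes and the file headers, these counts were made with Cell Ranger 7.0.1 on GRCm39, and the annotation release is not given in the sources used here. The 10 genes and the gene lists were chosen with earlier results of these data known. Barcodes with under 500 genes or over 10% mitochondrial UMIs were left out, which kept 22403 of 25635 adult and 18975 of 22298 old barcodes, from totals of 208637421 and 229917243 UMIs. No doublets were removed.

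Both libraries were clustered jointly, not integrated (scanpy 1.11.5, leidenalg 0.10.2) on 2000 variable genes, with the 10 genes and the metalloproteinase lists left out, 50 principal components, 15 neighbours and Leiden resolution 1. Clusters were named from 24 marker lists, where a marker score of at least 0.45 and at least 3 detected markers were needed. UMIs were summed per cell type and library. Intervals are exact (Poisson, Clopper-Pearson, or binomial for a ratio) at 95% and cover counting error only. With 1 library per age no test across genes was made; a gene was called apart at 2-fold with at least 50 CPM and 50 UMIs in the higher library. All 10 genes are described; listed genes are named, up to 4 per list and cell type, by largest fold, and look-alikes as the 3 highest correlations; some genes that these rules name are not reported here. Naming thresholds, the per-cell marker gate, the Mmp9 limit, the motifs, the way free RNA was subtracted, the within-cluster values of listed genes and the rule for the results listed for a closer look were set after values were seen. Calls and intervals were tried on Poisson counts simulated from the adult CAR-like profile. Such counts meet the assumption of the intervals and leave out the concentration of UMIs in few cells. They therefore check the computation and not how well the intervals suit the real counts. Promoters are from RefSeq, on GRCm38.p6. Other clusterings, filters, weightings and minimums were tried.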

Additional observations from a re-analysis of the deposited data

Results flagged for a closer look

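For 3 genes the old-over-adult ratio went in opposite directions in different cell types, with each counting interval off 0. The difference between cell types was not tested, since there is 1 library per age. Mmp13 was higher in the old library in osteolineage-like cells (log2 2.77) and lower in megakaryocyte-like cells (log2 -0.26), 3.03 apart. Mmp14 was at a log2 of 0.13 in osteolineage-like and -1.26 in megakaryocyte-like cells, 1.40 apart. The positive sign of Mmp14 in osteolineage-like cells held under 9 of 11 other settings (lowest log2 -0.092), and its value was -0.02 in cluster 15 and -0.93 in cluster 10. The negative sign of Mmp13 in megakaryocyte-like cells held under 10 of 11 (log2 -4.64 to 0.12). When the UMIs per cell of erythroid-like cells were subtracted as free RNA, few of its UMIs were left there. These were 305 of 1750 in the adult library and 9.61 of 1146 in the old one. Timp2 was at a log2 of 1.13 in osteolineage-like and -0.90 in erythroid-like cells, 2.03 apart. Erythroid-like cells are the class that served as the free RNA level of megakaryocyte-like cells. Whether the Timp2 UMIs in them are free RNA was not tested. Mmp13 and Timp2 were not higher in the old library in osteolineage-like clusters 10 and 15.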

How the results depend on the processing

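No paired analysis was possible because each age has 1 library. In osteolineage-like cells Mmp13 (log2 2.54 to 3.15) and Timp3 (2.24 to 2.97) were at least 2-fold higher in the old library under all 11 other settings tried in every cell type, Timp1 under 10 and Timp2 under 8. Mmp9 turned with at least 1000 genes per cell (1.86), at resolution 0.5 (1.47) and without the cells of 20 or more Mmp9 UMIs (1.80, added after the values were seen). Also added, cluster 15 alone gave 0 genes apart, with Mmp13 at -0.062 and Timp2 at -0.27. Cluster 10 alone gave Mmp13 at -2.51, Timp1 at -1.35, Timp2 at -0.996 and Timp3 at -1.95; without the Mmp9-rich cells it gave 3 apart and -1.51, -1.34, -0.95 and -1.80. In CAR-like cells the 1 gene apart became 2 with all genes allowed in clustering or when cells needed 1000 genes, 0 at resolution 2, by the per-cell gate or with free RNA subtracted, and 3 with a minimum of 10 UMIs. Clusters shared by the libraries turned Timp3 there (-1.29). In endothelial-like cells the 1 became 0 at resolution 2, where sub-cluster 24 took no name and Timp3 stood at 0.47, 3 with the lower minimum, 2 with free RNA subtracted and 0 in sub-cluster 13. In pericyte or smooth muscle-like cells it became 2 by the gate, with cells weighted alike and with the lower minimum, and 0 when centred on the median gene. In megakaryocyte-like cells it became 0 by the gate and 2 with cells weighted alike, the lower minimum, the deepest cells left out or free RNA subtracted; in cluster 11 alone the 1 was Mmp19, higher, in place of Mmp14. In erythroid-like cells 0 became 1 by the gate or with cells weighted alike and 2 in shared clusters or with the lower minimum. Where a count changed for another reason than the construction of the setting, the cause was not tested. Counts of a few UMIs limit Mmp3 in every cell type.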
